A study of Canis lupus familiaris with 4 samples.

Results

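Chromosome 27 of the dog was compared between CLBL-1 8.0, a doxorubicin-resistant line kept in 8 µM doxorubicin hydrochloride, and CLBL-1, the dog diffuse large B-cell lymphoma line it derives from, which the labels describe as without chemoresistance and grown without the drug. The labels give both lines a stage IV tumour of the lymph node. Its members are all regions placed on this chromosome in the 2 deposited region tables of a MethylCap-seq experiment. They number 2866 of the 123421 regions of CLBL-1 8.0, or 2.32%, and 1342 of the 82247 regions of CLBL-1, or 1.63%. Each line gave 1 low salt and 1 high salt eluate, so there were 4 libraries and no replicates, and each table lists regions for a line without separating the eluates. The chromosome was selected on its region numbers in these same tables. All ratios below are therefore descriptions with no test, and intervals cover counting error only. They say nothing about how far another culture of either line, or another resistant derivative, would differ.

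DNA methylation in mammals sits mostly on cytosines followed by guanine, and CpG islands are the short stretches, often at gene starts, where such pairs are dense and usually unmethylated in normal cells. Most of the genome outside islands and their flanking shores is poor in CpG pairs and methylated in normal tissue, and cancer cells often lose part of that methylation while gaining it at some islands. In MethylCap-seq, methylated DNA is bound by the methyl-binding domain of a capture protein, eluted with salt and sequenced, so a captured region reports methylated CpG pairs together with how many lie close to each other and how much of that DNA was present. Dog chromosome 27 carries the HOXC homeobox genes and the type II keratins near its start, and further along SOX5 and the lectin-like receptors of natural killer and myeloid cells.

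Chromosome 27 held 2.14 times as many regions in CLBL-1 8.0 as in CLBL-1 (95% exact binomial interval 2.001 to 2.28). The other 37 autosomes together held 116936 regions in CLBL-1 8.0 and 77756 in CLBL-1, a ratio of 1.504 (1.49 to 1.52). Among all 38 autosomes the ratio of chromosome 27 ranked 2, behind chromosome 14 at 2.32, and the lowest was 0.918 on chromosome 36. Set against the other autosomes, the ratio of chromosome 27 was 1.42 times theirs. The regions covered 1.41 Mb of the chromosome in CLBL-1 8.0 and 0.874 Mb in CLBL-1, of the 45.9 Mb over which regions were listed. Sequencing depth is not given in these tables. A difference in depth between the lines cannot be told apart from a difference in methylation for the genome as a whole. With no input reads, a difference between the lines in the number of DNA copies, on the whole of chromosome 27 or along a piece of it, cannot be told apart from a difference in methylation either, and this holds for every ratio given below.

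The excess was uneven along the chromosome. Regions were counted by their start in windows of 1 Mb, and the log2 ratio of CLBL-1 8.0 to CLBL-1 was taken after adding 1 to each count. The single stretch whose mean differed most from the rest, by least squares, ran from 8 to 38 Mb. It held 1189 regions in CLBL-1 8.0 and 308 in CLBL-1, a ratio of 3.86 (3.40 to 4.39). Measured as covered length the ratio was 2.56. Before the stretch, from the start of the chromosome to 8 Mb, the numbers were 1043 in CLBL-1 8.0 and 759 in CLBL-1, a ratio of 1.37 (1.25 to 1.51). After it, from 38 Mb to the end, they were 634 and 275, a ratio of 2.31 (1.998 to 2.67). The interval of the first portion holds the 1.504 of the other autosomes, and that of the last portion lies above it.

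Of the 46 windows, 38 (82.6%) had a log2 ratio of 1 or more, against 31.1% of the 2151 windows of the other autosomes. Inside the stretch this was so for 29 of 30 windows, and on the rest of the chromosome for 9 of 16. The window log2 ratios in the stretch had a median of 1.85 and ran from 0.92 to 4.17, against a median of 0.71 for the other autosomes. All 30 lay above that median, and 18 lay above 1.77, the 95th percentile of the other autosomes. The window from 23 to 24 Mb had 17 regions in CLBL-1 8.0 and none in CLBL-1. The window from 20 to 21 Mb had 46 regions in CLBL-1 8.0 and 4 in CLBL-1, and that from 10 to 11 Mb had 27 and 3. At the low end, the window from 25 to 26 Mb had 33 regions in CLBL-1 8.0 and 17 in CLBL-1, with a log2 ratio of 0.92. In none of the 46 windows did CLBL-1 8.0 have fewer regions than CLBL-1. Such windows were uncommon on the other autosomes too, where the 5th percentile of the log2 ratio was 0. The window values of chromosome 27 chose the stretch, so they describe it and support nothing further.

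**Figure D1:**
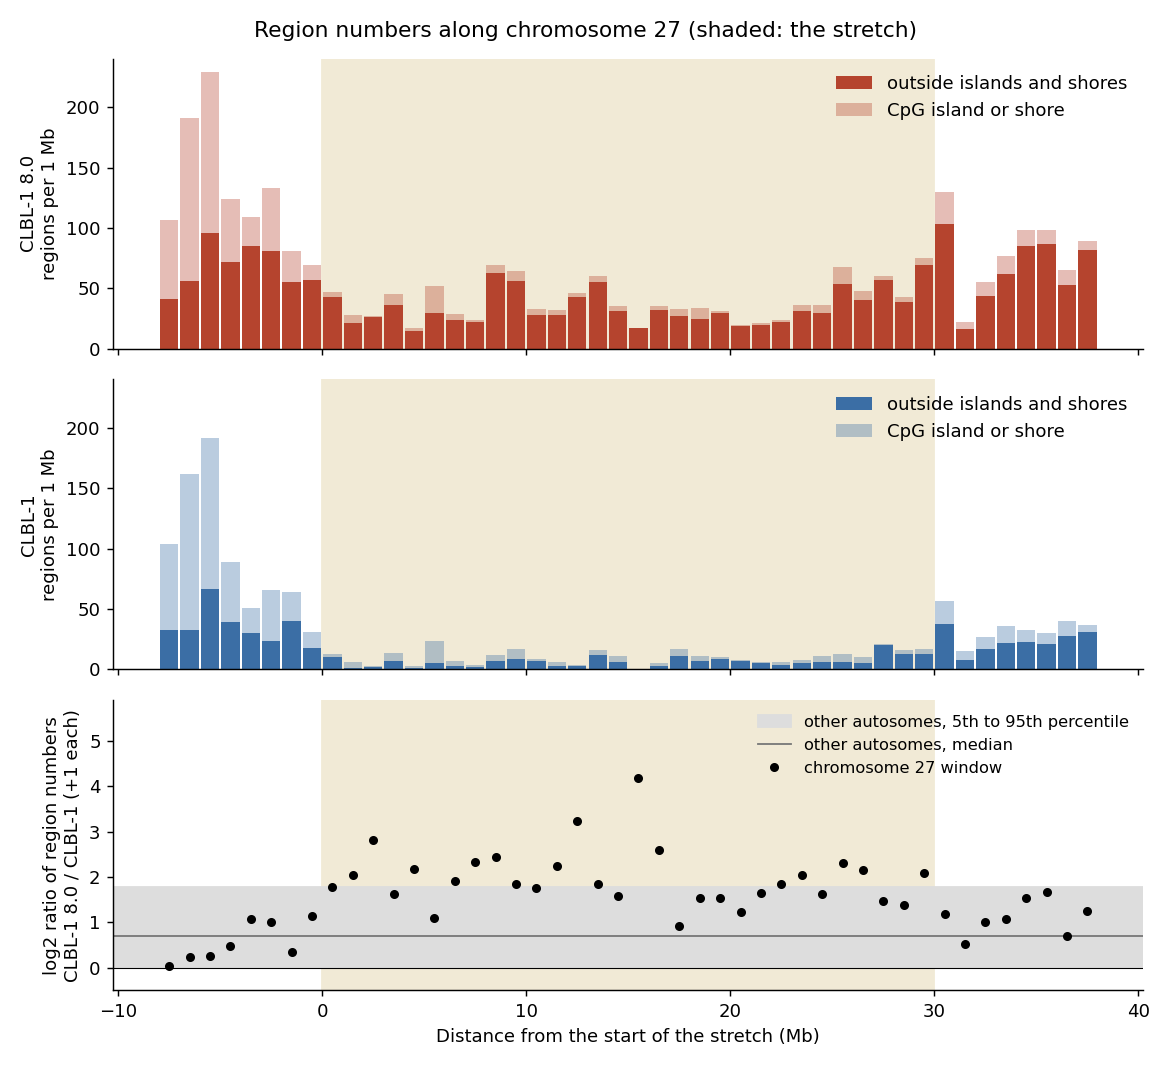
Regions per 1 Mb window along chromosome 27 in CLBL-1 8.0 (top) and CLBL-1 (middle), split by CpG class, and the log2 ratio of the window numbers (bottom), against distance in Mb from the start of the stretch, which is shaded. The grey band and line give the 5th to 95th percentile and the median over windows of the other autosomes; 18 of the 30 windows in the stretch lie above the band.

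In the fits the start of the stretch was better fixed than its end, though some windows before it also held an excess. From 4 to 5 Mb CLBL-1 8.0 had 109 regions and CLBL-1 51, a log2 ratio of 1.08. From 5 to 6 Mb the numbers were 133 and 66, a log2 ratio of 1. From 6 to 7 Mb they were 81 and 64, a log2 ratio of 0.34. In windows of 250 kb, CLBL-1 8.0 had 58 regions and CLBL-1 43 from 6.75 to 7 Mb, and 19 and 14 in the next window. From 7.25 to 7.5 Mb CLBL-1 8.0 had 25 regions and CLBL-1 9, and from 8.5 to 8.75 Mb the numbers were 11 and 1. At the far end, CLBL-1 8.0 had 33 regions and CLBL-1 11 from 38.5 to 38.75 Mb, and 13 and 12 from 38.75 to 39 Mb. The fit on 250 kb windows placed the stretch from 7.25 to 38.75 Mb. Past 38.75 Mb the excess came back: CLBL-1 8.0 had 98 regions and CLBL-1 33 from 42 to 43 Mb, and 98 and 30 from 43 to 44 Mb. With the CLBL-1 8.0 list shortened to the length of the CLBL-1 list by its highest folds, the fitted end was 44 Mb, and with regions outside islands and shores alone the stretch ran from 9 to 25 Mb. The start was between 7.25 and 9 Mb in these fits, whereas the end differed by many windows. The nearest named genes on either side of 8 Mb were SLC38A4 and SLC38A2, both amino acid transporters, with 4 and 2 regions in CLBL-1 8.0 and 1 each in CLBL-1. At 38 Mb they were C1R, a protease of the complement system, and LPCAT3, an enzyme that remodels membrane phospholipids, with 3 and 6 regions in CLBL-1 8.0 and none in CLBL-1.

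The excess was mostly in regions outside CpG islands and shores. On chromosome 27 these numbered 2108 in CLBL-1 8.0 and 664 in CLBL-1, a ratio of 3.17 (2.91 to 3.47), against 2.01 on the other autosomes. They made up 73.6% of the regions of CLBL-1 8.0 and 49.5% of those of CLBL-1, a difference of 24.1 percentage points (Newcombe 95% interval 20.9 to 27.2), while the same difference on the other autosomes was 15.8 points. Island regions numbered 169 in CLBL-1 8.0 and 140 in CLBL-1, a ratio of 1.21 (0.959 to 1.52), against 1.10 on the other autosomes. Shore regions numbered 589 and 538, a ratio of 1.09 (0.972 to 1.23), against 1.04. The intervals for islands and shores hold both 1 and the value of the other autosomes.

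Inside the stretch the contrast between classes was wider. Regions outside islands and shores numbered 1033 in CLBL-1 8.0 and 192 in CLBL-1, a ratio of 5.38 (4.61 to 6.31). Island regions numbered 26 and 23, a ratio of 1.13 (0.620 to 2.07), and shore regions 130 and 93, a ratio of 1.40 (1.06 to 1.84). The interval for shores in the stretch lies above the 1.04 of the other autosomes. Before the stretch the ratio outside islands and shores was 1.91 (1.65 to 2.21), with 543 regions in CLBL-1 8.0 and 284 in CLBL-1. After the stretch it was 2.83 (2.39 to 3.36), with 532 and 188. Had each class on chromosome 27 followed its ratio on the other autosomes, CLBL-1 8.0 would have listed 2053 regions there, 813 fewer than it did. Of that surplus 680 regions lay in the stretch and 164 after it, and before the stretch the observed number was 30 below.

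**Figure D2:**
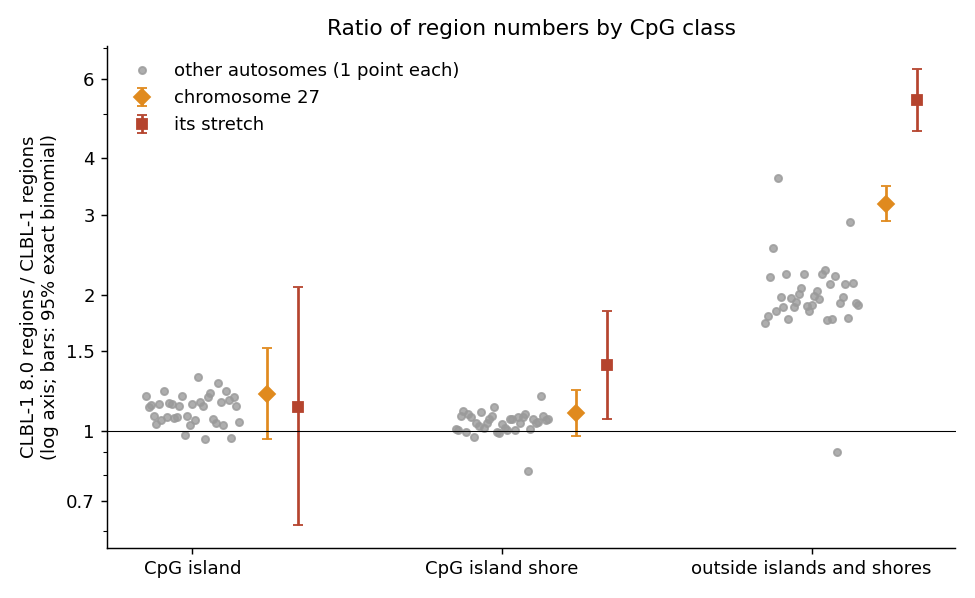
Ratio of region numbers, CLBL-1 8.0 over CLBL-1, on a log axis for each CpG class, with 1 grey point per other autosome, a diamond for chromosome 27 and a square for its stretch (bars, 95% exact binomial intervals, counting error only). Outside islands and shores chromosome 27 stands at 3.17, above all other autosomes but chromosome 14 at 3.62, and its stretch stands at 5.38; for islands and shores the chromosome lies among the others.

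The stretch was poor in islands, and windows of that kind were set beside it. Its density of regions outside islands and shores was 34.4 per Mb in CLBL-1 8.0 and 6.40 per Mb in CLBL-1, whereas on the other autosomes it was 33.8 and 16.8 per Mb. Against the whole of the other autosomes, then, the stretch was close in CLBL-1 8.0 and low in CLBL-1. The comparison turned round among windows with 2 to 6 island or shore regions in CLBL-1 8.0, which take in 18 windows of the stretch and 573 of the other autosomes. There the median number of regions outside islands and shores in CLBL-1 8.0 was 31 in the stretch and 15 on the other autosomes, while for CLBL-1 it was 6 in both. The median log2 ratio in such windows was 2.26 in the stretch and 1.14 elsewhere. With all windows of up to 22 island or shore regions, the medians in CLBL-1 8.0 were 30 in the stretch and 20 on the other autosomes, and in CLBL-1 they were 6 and 8. The stretch was chosen by these same region numbers, and the windows were matched on the CLBL-1 8.0 list. Which line is unusual in the stretch was therefore not tested.

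**Figure D3:**
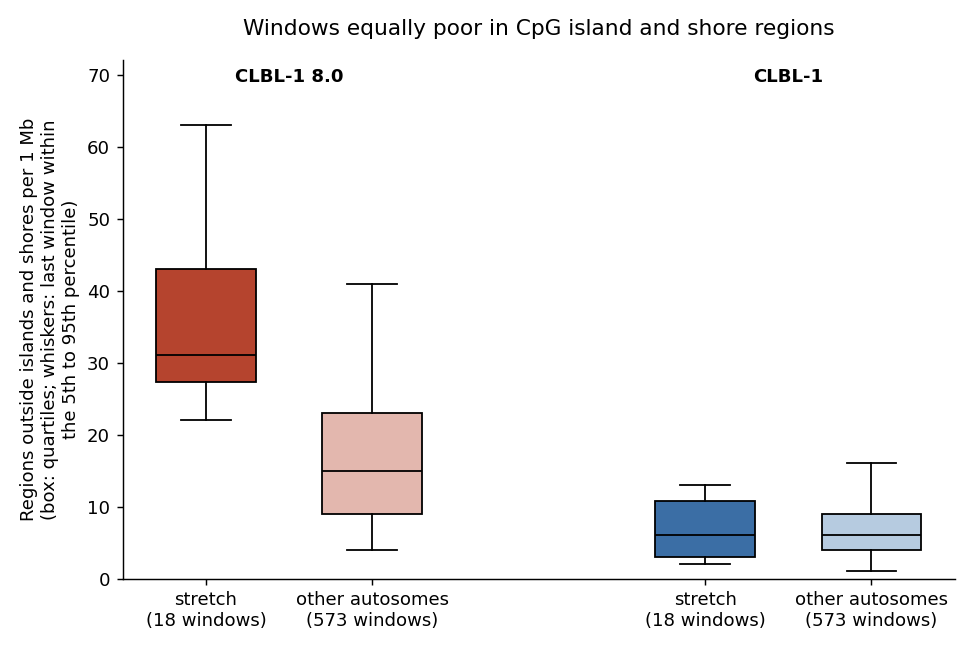
Number of regions outside CpG islands and shores per 1 Mb window in CLBL-1 8.0 (left pair) and CLBL-1 (right pair), for windows with 2 to 6 island or shore regions in the stretch of chromosome 27 and on the other autosomes (line, median; box, quartiles; whiskers, last window within the 5th to 95th percentile). In CLBL-1 8.0 the medians are 31 and 15, and in CLBL-1 both are 6.

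Most regions of CLBL-1 8.0 in the stretch had no counterpart in CLBL-1, counted as a shared base or more. On the whole chromosome 1583 of 2866 (55.2%, exact interval 53.4 to 57.1) had none, and in the stretch 886 of 1189 (74.5%, 71.9 to 77.0), against 38.5% on the other autosomes. Outside islands and shores the share was 81.6% in the stretch and 54.7% on the other autosomes. In shores it was 32.3% in the stretch, 42 regions of 130, against 13.6% on the other autosomes. In islands it was 3.85% in the stretch, 1 region of 26, against 6.28% elsewhere. The reverse was rare: 4 of the 308 CLBL-1 regions in the stretch (1.30%) had no counterpart in CLBL-1 8.0, as did 73 of 1342 on the whole chromosome (5.44%) and 8.88% on the other autosomes. So nearly every CLBL-1 region of the stretch was also listed in CLBL-1 8.0, which listed further regions between them. The median gap from a region to the next in the stretch was 14.01 kb in CLBL-1 8.0 and 51.05 kb in CLBL-1, and on the other autosomes it was 5.96 and 6.06 kb.

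The regions listed in CLBL-1 8.0 alone were short and moderately enriched. In the stretch they had a median length of 310 bp and a median fold of 5.38, against 314 bp and 4.75 on the other autosomes. The fold is the authors' value for each region, a linear ratio, and the sources used here do not name its background. Regions of CLBL-1 8.0 in the stretch that met a CLBL-1 region had a median length of 637 bp and a median fold of 9.18. The strongest region without a counterpart lay between genes at chr27:19852621-19852997 with a fold of 13.5. The next lay in an intron of ITPR2 at chr27:20833554-20834017 with a fold of 11.1. The tables do not state whether starts count from 0 or 1. CanFam3.1 is the build named in the submitters' processing notes.

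Where both lines listed a region, most folds were lower in CLBL-1 8.0, in the stretch less often than on the other autosomes. Over regions matched one to one, the median log2 ratio of folds, CLBL-1 8.0 over CLBL-1, was -0.18 in the stretch (289 pairs), -0.25 on the whole chromosome (1218 pairs) and -0.27 on the other autosomes (67730 pairs). By this median the whole chromosome ranked 15 among the autosomes, counted from the highest, and 3 for pairs outside islands and shores. The fold was higher in CLBL-1 8.0 for 35.6% of pairs in the stretch and for 22.8% on the other autosomes. Outside islands and shores the quartiles in the stretch were -0.35 and 0.55 over 185 pairs, with 45.4% of pairs higher in CLBL-1 8.0. On the other autosomes they were -0.53 and 0.08, with 29.9% higher. At shores in the stretch the median was -0.28 over 80 pairs, against -0.32 elsewhere. The pairs of a line come from 1 list each and are not replicates, so the differences carry no test.

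**Figure D4:**
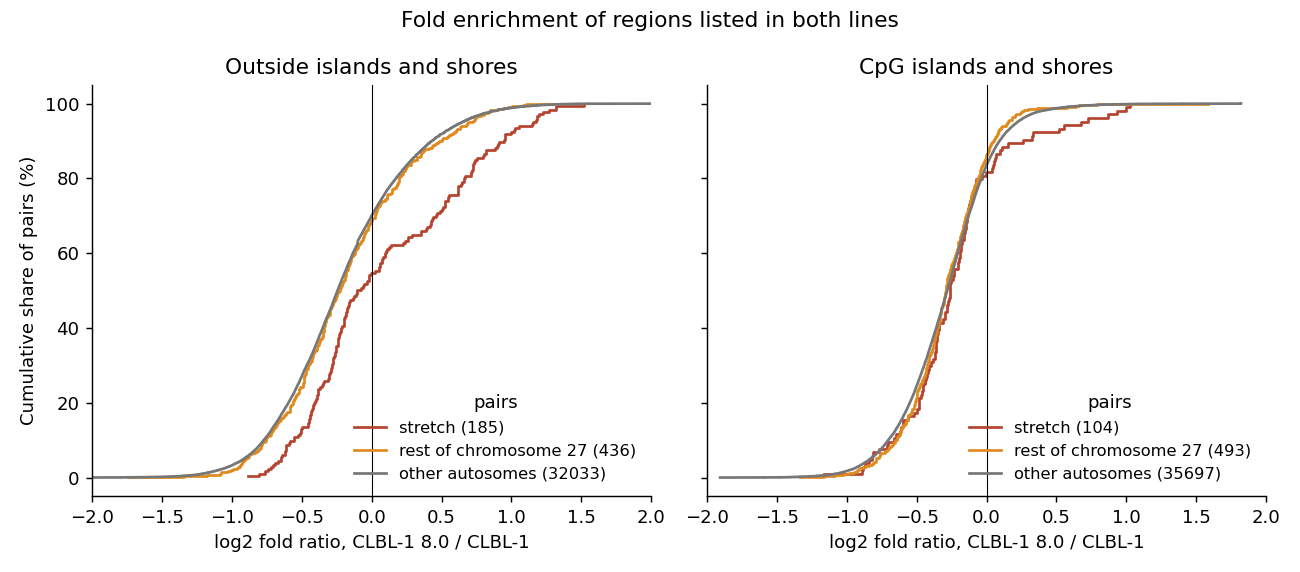
Cumulative share of one-to-one pairs (percent) by the log2 ratio of their folds, CLBL-1 8.0 over CLBL-1, outside CpG islands and shores (left) and in them (right), for the stretch, the rest of chromosome 27 and the other autosomes. On the left the curve of the stretch runs right of the other curves, with an upper quartile of 0.55 against 0.08 on the other autosomes.

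The background used for the folds was checked as far as the values allow. In MACS2 a fold divides the pile-up of fragments by the larger of a genome-wide and a local background, so folds set by the genome-wide value fall on whole multiples of 1 step. Such a step was 0.317 in the CLBL-1 8.0 table and 0.339 in the CLBL-1 table. The genome-wide background depends on depth among other things, and what the steps say of depth was not tested. In the stretch 60.6% of folds in CLBL-1 8.0 and 38.6% in CLBL-1 lay on their step, within a tolerance of 2e-05, against 24.0% and 17.8% on the other autosomes. Among regions outside islands and shores in windows with 2 to 6 island or shore regions, the shares were closer, at 64.8% in the stretch and 60.7% on the other autosomes in CLBL-1 8.0, and 51.9% and 47.4% in CLBL-1.

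The most enriched regions of the chromosome were shared by both lines. The top region of both lists was the same site, chr27:8045826-8046285 in CLBL-1 8.0, an island shore in the coding sequence assigned to LOC102155835, with a fold of 24.1 in CLBL-1 8.0 against 25.4 in CLBL-1. The next in CLBL-1 8.0, between genes at chr27:11613984-11614653, had 22.8 in CLBL-1 8.0 and 20.7 in CLBL-1. An intron of PIK3C2G, a lipid kinase gene, held a CLBL-1 region at chr27:28585831-28586556 with a fold of 17.2 in CLBL-1 8.0 and 23.0 in CLBL-1. All 5 top regions of each list had a counterpart in the other.

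By gene location, introns showed the largest difference in number. Intronic regions of chromosome 27 numbered 1240 in CLBL-1 8.0 and 454 in CLBL-1, a ratio of 2.73 (2.45 to 3.05), against 1.69 on the other autosomes. In the stretch they numbered 582 and 114, a ratio of 5.11. Regions between genes numbered 712 in CLBL-1 8.0 and 299 in CLBL-1, and in the stretch 372 and 101, a ratio of 3.68, against 1.44 on the other autosomes. Regions flagged as lying on a transcription start hardly differed in number, at 106 in CLBL-1 8.0 and 104 in CLBL-1, and at 28 and 25 in the stretch. Their ratio on the chromosome was 1.02, near the 1.01 of the other autosomes. Regions flagged as enhancers numbered 133 in CLBL-1 8.0 and 67 in CLBL-1, a ratio of 1.99, against 1.51 on the other autosomes.

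The tables assigned regions of the chromosome to 550 genes, of which 398 have a gene symbol and the others only a locus number. Of these 550, CLBL-1 8.0 had a region at 548 and CLBL-1 at 399, and 151 (27.5%) had one in CLBL-1 8.0 only, against 20.5% of 20585 genes on the other autosomes. At least 5 more regions in CLBL-1 8.0 were found at 71 genes (12.9%), against a background of 7.64% of 20585 genes on the other autosomes. Among the 209 genes with a region in the stretch the share was 21.5%, and among the other 341 it was 7.62%, near the background. Those 341 pool genes before and after the stretch, where the ratios of region numbers were 1.37 and 2.31. The share was not taken for each portion alone. The gene roles given below are those known from human and mouse.

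ERC1, a scaffold protein of the presynaptic active zone, had the largest difference, with 52 regions in CLBL-1 8.0 and 10 in CLBL-1 between 42999893 and 43548566, in the portion after the stretch. ITPR2, a receptor that releases calcium from the endoplasmic reticulum, had 21 regions in CLBL-1 8.0 and 1 in CLBL-1. SOX5, an SRY-box transcription factor, had 21 and 2. At ITPR2, 18 of the regions of CLBL-1 8.0 were intronic, with folds of 3.48 to 11.1, and the single CLBL-1 region met one of them, with a fold of 8.96 in CLBL-1 8.0 against 5.09 in CLBL-1. At SOX5, both CLBL-1 regions were also listed in CLBL-1 8.0. The one listed as upstream, an island shore, begins before the start of the gene and runs past it. It had a fold of 10.7 in CLBL-1 8.0 against 12.3 in CLBL-1. The other, in an intron at 22916207 to 22916782, had a fold of 11.7 in CLBL-1 8.0 and 5.77 in CLBL-1. So at SOX5 the fold of CLBL-1 8.0 was lower at the shore and higher in the intron. Lower shore folds in CLBL-1 8.0 were usual, with a median log2 ratio of -0.32 over shore pairs of the other autosomes. The remaining 19 regions of CLBL-1 8.0 were outside islands and shores, from 22869526 to 23850951.

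Of the other genes of largest difference, CACNA1C, DIP2B and B4GALNT3 lie off the stretch. CACNA1C, the pore subunit of an L-type calcium channel, had 31 regions in CLBL-1 8.0 and 17 in CLBL-1. SLC2A13, a myo-inositol transporter, had 19 and 5, and DIP2B had 18 and 5. PLEKHA5, a pleckstrin homology domain protein, had 14 and 1. RIMKLB, a ligase that joins glutamate to N-acetylaspartate, had 17 and 5, and B4GALNT3, a glycosyltransferase, had 14 and 3. BICD1, an adaptor of the dynein motor, and LRP6, a co-receptor for Wnt ligands, had 11 regions each in CLBL-1 8.0 and none in CLBL-1. All 11 at BICD1 and 10 of the 11 at LRP6 lay outside islands and shores, with folds of 4.43 to 7.28 at BICD1 and 4.04 to 8.23 at LRP6. BICD1 and LRP6 were picked out after their values were seen.

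**Figure D5:**
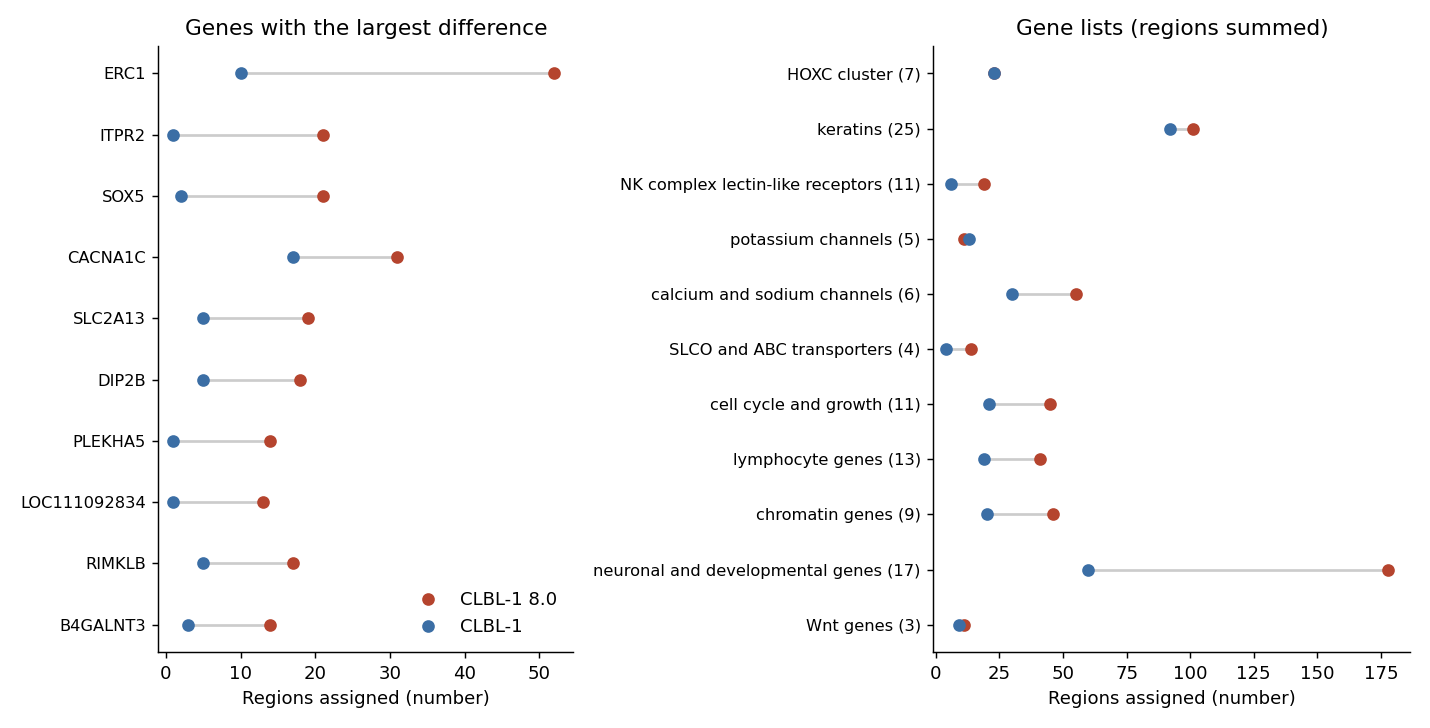
Regions assigned in CLBL-1 8.0 (red) and CLBL-1 (blue) to the 10 genes with the largest difference (left), and summed over the genes of each of 11 lists, with the number of genes in brackets (right). ERC1 has 52 and 10 regions; the HOXC points coincide at 23, and potassium channels are the list with fewer regions in CLBL-1 8.0, at 11 against 13.

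Gene lists from the first portion of the chromosome, where islands are dense, differed little. The 7 HOXC genes, homeobox factors that pattern the body axis, had 23 regions in each line. The 25 listed keratin genes, which encode filament proteins of epithelia and are type II except for KRT18, had 101 regions in CLBL-1 8.0 and 92 in CLBL-1, and none of these genes had 5 or more extra regions in CLBL-1 8.0. Numbers were also close at 2 small lists spread along the chromosome. The 3 Wnt genes had 11 regions in CLBL-1 8.0 and 9 in CLBL-1, and the 5 potassium channel genes, 1 of them in the stretch, had 11 and 13. Across all 550 genes the median difference was 1 region, as it was for the keratins, and it was 0 for the HOXC, Wnt and potassium channel lists.

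The 3 lists with most of their genes in the stretch had ratios above the 2.14 of the chromosome, from 2.97 to 3.5. The stretch was chosen by these same region numbers, so high ratios of lists lying in it support nothing further. All 11 lectin-like receptor genes have regions in the stretch, and they had 19 regions in CLBL-1 8.0 and 6 in CLBL-1. Each of the 11 had a region in CLBL-1 8.0, and 5 had one in CLBL-1, which is close to the 99.5% and 53.6% of all 209 genes with a region in the stretch. CLEC7A, a receptor for fungal glucans, had 3 and 1, and CLEC2D, a ligand of a natural killer cell receptor, and CLEC4A, a dendritic cell lectin, had 3 each in CLBL-1 8.0 and none in CLBL-1. The 4 SLCO and ABC transporters had 14 regions in CLBL-1 8.0 and 4 in CLBL-1. ABCD2, a peroxisomal fatty acid transporter, had 6 and 1, and SLCO1A2, an uptake carrier for organic anions, had 4 and 1. The 17 neuronal and developmental genes, 12 of them with a region in the stretch, had 178 regions in CLBL-1 8.0, against 60 in CLBL-1. ERC1, which lies after the stretch, gave 52 of the 178 and 10 of the 60, so this ratio is not that of the stretch alone. Of the 17 genes, 10 had at least 5 more regions in CLBL-1 8.0. This was so for 21.5% of the 209 genes with a region in the stretch and for 12.9% of all 550. Whether gene length adds to these numbers was not tested.

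The remaining lists had ratios near that of the chromosome, from 1.83 to 2.3. The 11 cell cycle and growth genes had 45 regions in CLBL-1 8.0 and 21 in CLBL-1. Among them ETV6, an ETS transcription factor, had 13 and 6, and CCND2, a cyclin of the entry into the cell cycle, had 9 and 5. The 9 chromatin genes had 46 and 20, with 9 and 2 at KDM5A, a histone demethylase. ATF7IP, a partner of a histone methyltransferase, had 5 and 0. The 6 calcium and sodium channel genes had 55 regions in CLBL-1 8.0, against 30 in CLBL-1.

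The 13 genes of the lymphocyte list had 41 regions in CLBL-1 8.0 and 19 in CLBL-1. Not all of them are particular to lymphocytes, since the list also takes in C1R and BCAT1. CD4, the co-receptor of helper T cells, lay just past the stretch and had 7 regions in CLBL-1 8.0, between 38216414 and 38253025, and none in CLBL-1. All 7 lay outside islands and shores, 6 of them in introns with folds of 3.86 to 6.65 and 1 at 1968 bp upstream of the start with a fold of 4.93. CD27, a TNF receptor family member of memory B cells, had 1 region in CLBL-1 8.0, 63 bp upstream of its start with a fold of 4.61, and none in CLBL-1. BCAT1, an enzyme of branched-chain amino acid breakdown, had 7 regions in CLBL-1 8.0, against 3 in CLBL-1.

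Of the 550 genes, 32 (5.82%) had fewer regions in CLBL-1 8.0, against 9.28% of genes on the other autosomes. Equal numbers were found at 125, and 393 (71.5%) had more in CLBL-1 8.0, against 60.4%. Among the 341 genes without a region in the stretch, before and after it together, 8.80% had fewer and 60.1% more, both near the background. KRT80, a keratin, had 10 regions in CLBL-1 8.0 and 13 in CLBL-1, and NCKAP1L, a regulator of actin in blood cells, had 4 and 7. ITGA5, a chain of the fibronectin receptor, and RARG, a retinoic acid receptor, had 6 regions each in CLBL-1 8.0 and 8 each in CLBL-1. FIGNL2 had 14 and 16, SOAT2, an enzyme that esterifies cholesterol, 3 and 5, and HOTAIR, a long noncoding RNA gene within the HOXC cluster, 4 and 6. The activin receptor family genes ACVR1B and ACVRL1 had 6 and 5 in CLBL-1 8.0, against 7 and 6 in CLBL-1. The genes just named all lie in the portion before the stretch.

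Promoter regions, by the flag in the tables, were found at 262 genes in CLBL-1 8.0 and at 190 in CLBL-1, and at 269 in either. In CLBL-1 8.0 only they were found at 79 (29.4%), against a background of 24.8% of the 10633 such genes on the other autosomes. In CLBL-1 only they were found at 7 (2.60%), against 6.92%. Among the 78 genes with a promoter region in either line and a region in the stretch, 34 (43.6%) had it in CLBL-1 8.0 only. Among regions with folds above 5.28, the median over the 2 lists pooled, CLBL-1 8.0 alone had a promoter region at 37 genes and CLBL-1 alone at 29. When the CLBL-1 8.0 list was shortened to the length of the other, CLBL-1 alone had one at 43 genes, so the small number depends on the longer CLBL-1 8.0 list.

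At 76 of the 79 genes (96.2%) no CLBL-1 region of any kind touched the promoter region, against 81.2% of 2638 such genes on the other autosomes. Among those, 43 lay outside islands and shores, 32 in shores and 1 in an island, and 33 were in the stretch. The highest fold, 10.4, was at LMBR1L, a membrane receptor-like gene, in a shore at chr27:5473974-5474360, 1658 bp upstream of its start. MED21, a subunit of the Mediator complex that links transcription factors to RNA polymerase, had a shore region at chr27:20619664-20620073, 449 bp upstream with a fold of 8.89. AKAP3, an anchor of protein kinase A in sperm, had a shore region at chr27:40215851-40216221 with a fold of 9.18. A gene described as similar to CLEC2F, LOC100687968, had a region outside islands and shores at chr27:36058689-36059035 with the same fold of 9.18. The other 4 of the 8 highest were at uncharacterized loci, with folds of 8.55 to 10.2. In the other direction 1 of the 7 genes remained, against 36.1% of 736 on the other autosomes: METTL7A, a methyltransferase-like gene, with an island region at chr27:3867131-3867408, 781 bp upstream, with a fold of 5.09 in CLBL-1.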

How the data were processed

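MethylCap-seq libraries were made from DNA of the resistant CLBL-1 8.0 line and its parent CLBL-1 (4 libraries, 1 per line and eluate), and sequenced as paired ends, per the labels' protocols. BWA, MACS2 and CanFam3.1 are named in the submitters' processing notes; the sources used here give no versions, settings or pooling of eluates. The deposited table of each line lists regions with a fold enrichment, a linear ratio per the file headers, and a signed distance to the transcription start, the nearest gene and flags for location and CpG class. The lists hold no read numbers, so depth is not given. A short summary sheet was not used here.

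Region numbers, 1 Mb windows (windows under 5 regions in both lists together left out), overlaps of at least 1 bp and one-to-one pairs were computed with Python 3.11.15, numpy 2.4.6 and pandas 2.3.3. The stretch is the single run of 3 or more windows that minimises the squared error of the log2 ratio (1 added to each count). Intervals are 95% exact binomial, or Newcombe for differences of shares. The stretch finder and overlaps were tested on simulated data. The symbols of 384 of 398 named genes matched RefSeq names, all on chromosome 27. The genes named are the 10 with the largest difference in each direction, up to 4 per list by difference, the 8 highest promoter regions and the nearest genes at the ends of the stretch, with exceptions stated; a few items are not reported here. The members and lists were chosen with earlier results of these data known. Alternatives were a fold limit, lists of equal length, merged regions, covered length, other windows, other overlaps and other promoter definitions. No sequence is printed, since no genome of this build was used here.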

Additional observations from a re-analysis of the deposited data

How the results depend on the processing

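Of 49 alternative values, 29 lay within the interval, 1 window or 1.5 times of the main value and 20 did not, and none turned a direction. The cause was not tested. Above the pooled median fold of 5.28 the ratio of chromosome 27 was 1.84, that of the stretch 3.1, the ratio over the other autosomes 1.56, the median log2 fold ratio -0.30, and the genes with a promoter region in 1 line only 37 in CLBL-1 8.0 and 29 in CLBL-1. With lists of equal length, the ratio was 1.59, that over the other autosomes 1.59, the end of the stretch 44 Mb, the difference in share outside islands and shores 29.8 points, the share without a counterpart 58.35% and the CLBL-1 only promoter genes 43. By covered length the 3 ratios were 1.62, 1.28 and 2.56. From the density of CLBL-1 8.0 regions alone the stretch ran from 0 to 7 Mb, the island-rich start. Outside islands and shores, an alternative chosen after seeing the data, the ratio over the other autosomes was 1.58 and the end 25 Mb. Promoter regions that met none of the other list left 1 gene in CLBL-1 only. Regions merged within 500 bp moved no result beyond its interval. No paired analysis was possible because the labels carry no replicate numbers and no group has a second library. Depth is not given and was not derived from the folds, so the level at which weak regions were missed in CLBL-1 cannot be given.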

Other observations

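The 3 longest gaps between CLBL-1 regions in the stretch were not empty in CLBL-1 8.0. The longest, 1730 kb from chr27:22916749-24647011, begins in SOX5 and held 36 regions of CLBL-1 8.0, all outside CpG islands and shores, assigned to SOX5, ETNK1 and a locus without a symbol where a gene was given. A gap of 902.2 kb over NELL2 and TMEM117 held 13 and a gap of 772.4 kb that takes in ADAMTS20 held 18. The 3 longest gaps of CLBL-1 8.0, up to 296.1 kb, held 0 regions of CLBL-1. These gaps were picked out after their values were seen.

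By the share of 1 Mb windows with a log2 ratio of 1 or more, chromosome 27 was first of the 38 autosomes, at 82.6%, and chromosome 6 next at 65.4%. The longest unbroken run of such windows was 20 on chromosome 31 and 18 on chromosome 27, from 7 to 25 Mb. Fitted in the same way, the mean log2 ratio in the stretch of chromosome 27 was 1.97 over 30 windows, against 4.15 on chromosome 14 over 4 windows and 1.89 on chromosome 31 over 20.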
